A study of Homo sapiens with 6 samples.

Results

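The polyamine genes examined here were SAT1, ODC1, AMD1, SRM, SMS, SMOX, PAOX, OAZ1, OAZ2 and AZIN1, 10 of the 35993 genes in the deposited table, with 40 of its 81203 transcripts. They were taken by gene symbol, and were chosen on the read counts of the same contrast, with the large difference of SAT1 already known. Their differences between the groups are therefore given as descriptions, with no test. The RNA came from MIA PaCa-2, an established line of human pancreatic carcinoma cells. In 3 libraries the cells were untreated, and in 3 they had received rhCYGB, recombinant human cytoglobin (a heme protein, produced in E. coli), at 4 µM for 48 h. All wells were in low-serum medium, and the labels name no introduced allele. No library came from cells given another recombinant protein, so an effect of adding any such protein cannot be told apart from that of rhCYGB. The labels do not say whether the libraries of a group came from separate cultures, so the p-values below measure the spread between libraries, which may be technical.

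Polyamines (putrescine, spermidine and spermine) are small positively charged molecules that bind nucleic acids and that dividing cells need. Ornithine decarboxylase (ODC1) makes putrescine from ornithine, and spermidine synthase (SRM) and spermine synthase (SMS) lengthen it with aminopropyl groups from S-adenosylmethionine that AMD1 has decarboxylated. In the opposite direction SAT1 acetylates spermidine and spermine, PAOX oxidises the acetylated forms, and SMOX oxidises spermine directly, both oxidases releasing hydrogen peroxide. Antizymes (OAZ1, OAZ2) bind ODC1 protein and deliver it to the proteasome, and the antizyme inhibitor AZIN1 takes antizyme away from ODC1. Much of this control acts on translation and protein stability, which RNA counts do not measure.

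Read counts on genes summed to between 34838399 and 42271299 per library, and 14728 genes were kept for testing, all 10 polyamine genes among them. Epithelial keratins (KRT8, KRT18, KRT19) and the mesenchymal genes VIM and ZEB1 were expressed in every library, while EPCAM had 0 counts and CDH1 at most 2. Acinar (PRSS1, CPA1, CELA3A) and endocrine (INS, GCG) markers, DCN and the leukocyte marker PTPRC had 0 counts throughout, COL1A1 at most 10 and PDGFRB at most 5. The leukocyte-associated gene CD68 was at 34.3 to 38.0 CPM in untreated and 70.4 to 72.4 CPM in rhCYGB libraries, KRT8 at a mean of 2085 and 1190 CPM and ZEB1 at 37.7 and 85.3 CPM (CPM, read counts scaled to 1000000 per library). Their part in the results was not tested. CDKN2A and MTAP, which are known to be deleted in this line, had 0 counts in all 6 libraries. The response to rhCYGB was broad: in edgeR, where p-values were adjusted by Benjamini-Hochberg over all tested genes, 39% were higher and 38.6% were lower past the threshold of 0.05, and 12.4% and 14.7% respectively when a 2-fold change was also required (1833 and 2165 genes). That split depends on scaling, with 1395 higher and 2719 lower under total counts. Any member's difference has to be read against that background. In bulk RNA, fewer cells and less RNA per cell cannot be told apart.

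3 stretches of sequence are shown because the largest rise, the largest fall and the isoform difference of SAT1 refer to them. The first is the exon that separates both SAT1 isoforms in the deposited transcript table. It is exon 4 of 7 in the longer isoform (RefSeq NR_027783) and is skipped in the coding isoform NM_002970, which has 6 exons. It is 110 bases long, equal to the length difference between both isoforms in the deposited table, and lies at chrX:23784294-23784403 on the plus strand of GRCh38 in GENCODE 29. Capitals mark the first of 3 stop codons in the exon that are in frame with the SAT1 start. It begins at base 12 of the exon, after 71 codons, whereas the coding isoform has 171 codons.
SAT1 exon 4 of NR_027783: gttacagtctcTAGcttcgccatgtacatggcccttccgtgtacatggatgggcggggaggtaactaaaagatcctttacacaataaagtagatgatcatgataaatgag
As background, such an exon is called a poison exon, because transcripts that carry a premature stop are usually degraded by nonsense-mediated decay. Inclusion of the SAT1 exon is known to depend on the polyamine level of the cell, which was not measured in these files. The other stretches are the 250 bases before the RefSeq start of SAT1, chrX:23782923-23783172 on the plus strand, and of AMD1, chr6:110874535-110874784 on the plus strand, both from GRCh38.p14. Capitals mark a GC box (GGGCGG) in the AMD1 sequence.
SAT1 upstream: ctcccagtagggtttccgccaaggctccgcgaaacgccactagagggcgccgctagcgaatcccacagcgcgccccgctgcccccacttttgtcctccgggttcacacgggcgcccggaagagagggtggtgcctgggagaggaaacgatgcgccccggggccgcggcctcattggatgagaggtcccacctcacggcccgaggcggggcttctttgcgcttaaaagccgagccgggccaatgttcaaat
AMD1 upstream: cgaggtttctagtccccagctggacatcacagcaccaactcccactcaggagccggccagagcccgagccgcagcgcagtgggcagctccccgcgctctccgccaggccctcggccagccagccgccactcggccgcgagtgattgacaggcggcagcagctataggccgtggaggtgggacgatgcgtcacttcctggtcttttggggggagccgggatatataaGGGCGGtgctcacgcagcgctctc

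Promoter windows of 300 bases, 250 before and 50 after the start, were used for 7 of the members as 10 windows. No window was at hand for SMOX and PAOX, and AZIN1 was left out of the search. In both strands of each window used, 8 motifs were searched, and matches may overlap. The SAT1 window held none of them. A GC box (GGGCGG), the binding site of SP factors and present in 45% of all 35116 windows, was found in the other 9 windows. These are not separate promoters, since ODC1 and AMD1 have several windows each, and nearly coinciding AMD1 windows hold the same box. The 10 windows were also rich in GC, at 65.3% to 82.0% against a median of 58.7% over all windows. The E-box CACGTG, which MYC can bind, was found for SRM and ODC1 (7.26% of all windows), the antioxidant response core TGACNNNGC for ODC1 (13.3%), the AP-1 site TGACTCA for OAZ2 (4.95%) and TATAAA for OAZ1 (11.5%). The cyclic AMP response element TGACGTCA (1.85% of all windows), the C/EBP-ATF element TGATGNAA (3.62%) and the polyamine response element TATGACTAA (0.0997%) were in none of these 10 windows. Shared letters of this kind describe the windows and do not show binding. Bases outside the windows were not searched.

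SAT1, which catalyses the rate-limiting step of polyamine breakdown, had the largest difference of the 10 genes. Levels are given as CPM after TMM scaling of the library sizes. In untreated libraries 1, 2 and 3 SAT1 stood at 48.5, 50.2 and 45.4 CPM, and in rhCYGB libraries 1, 2 and 3 at 951, 938 and 890.1 CPM. The lowest treated library was far above the highest untreated one. The raw counts behind these levels were 1806, 2249 and 1851 against 35328, 31213 and 32815. The group means were 48.0 ± 2.43 and 926 ± 32.1 CPM (SD, n = 3), a difference of 4.27 in mean log2 CPM, or 19.3-fold. By size of rise SAT1 ranked 31 of the 14728 genes tested, and 99.8% had a lower difference.

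The oxidases followed different courses. SMOX, which turns spermine back into spermidine, was at 26.5, 25.5 and 24.5 CPM in untreated and at 90.9, 92.5 and 89.0 CPM in rhCYGB libraries. Its means were 25.5 ± 1.02 and 90.8 ± 1.77 CPM (SD, n = 3), a 3.56-fold difference (log2 1.83), with no overlap between the groups. PAOX, the peroxisomal oxidase that acts on the products of SAT1, was at 9.05, 8.52 and 8.24 CPM in untreated and at 9.5, 9.92 and 9.79 CPM in rhCYGB libraries. Its groups also stood apart, but by 0.18 in log2 CPM (1.13-fold) and on 330 to 382 reads per library.

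Synthesis genes did not move together. ODC1, the first enzyme of the pathway, was at 193, 196 and 185 CPM in untreated libraries and at 376, 351 and 339.6 CPM after rhCYGB, 1.85-fold higher (log2 0.89). AMD1, which supplies the aminopropyl donor, went the other way. It was at 169.5, 167 and 180 CPM in untreated and at 97.1, 87.1 and 100.1 CPM in rhCYGB libraries, so that the means were 172 ± 7.04 and 94.8 ± 6.78 CPM (SD, n = 3). This was a difference of -0.86 in mean log2 CPM, 1.82-fold lower after rhCYGB, and the largest fall among the members. The AMD1 locus, taken over all its isoforms, shares positions with CDK19. CDK19 had 1057 to 1403 counts per library, and how reads were assigned by strand is not given in the sources used here.

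SRM and SMS, the aminopropyl transferases, differed little. SMS was at 396, 405 and 395 CPM in untreated and at 564, 502 and 506 CPM in rhCYGB libraries, 1.31-fold higher (log2 0.39). SRM was at 135, 136 and 126 CPM in untreated and at 154, 145 and 151 CPM in rhCYGB libraries, a 1.14-fold difference (log2 0.18). Among processed copies of SMS elsewhere in the genome, LOC642590 held 8 to 18 and LOC646347 held 24 to 47 counts per library, beside 14766 to 20955 on SMS itself.

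Among the regulators of ODC1 protein, the inhibitor of antizyme differed most. AZIN1 was at 94.2, 93.7 and 94.0 CPM in untreated libraries and at 202, 201 and 209 CPM after rhCYGB. Its means were 94.0 ± 0.251 and 204 ± 4.32 CPM (SD, n = 3), 2.17-fold apart (log2 1.12). OAZ1, the antizyme with the higher FPKM, was at 364, 367 and 354 CPM in untreated and at 471, 458 and 425 CPM in rhCYGB libraries, 1.25-fold higher (log2 0.32). OAZ2 was at 30.1, 29.6 and 30.2 CPM in untreated and at 26.7, 28.6 and 28.4 CPM in rhCYGB libraries, 1.08-fold lower (log2 -0.11). The inhibitor and ODC1 were thus both higher after rhCYGB, by more than OAZ1, while OAZ2 was slightly lower.

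**Figure D1:**
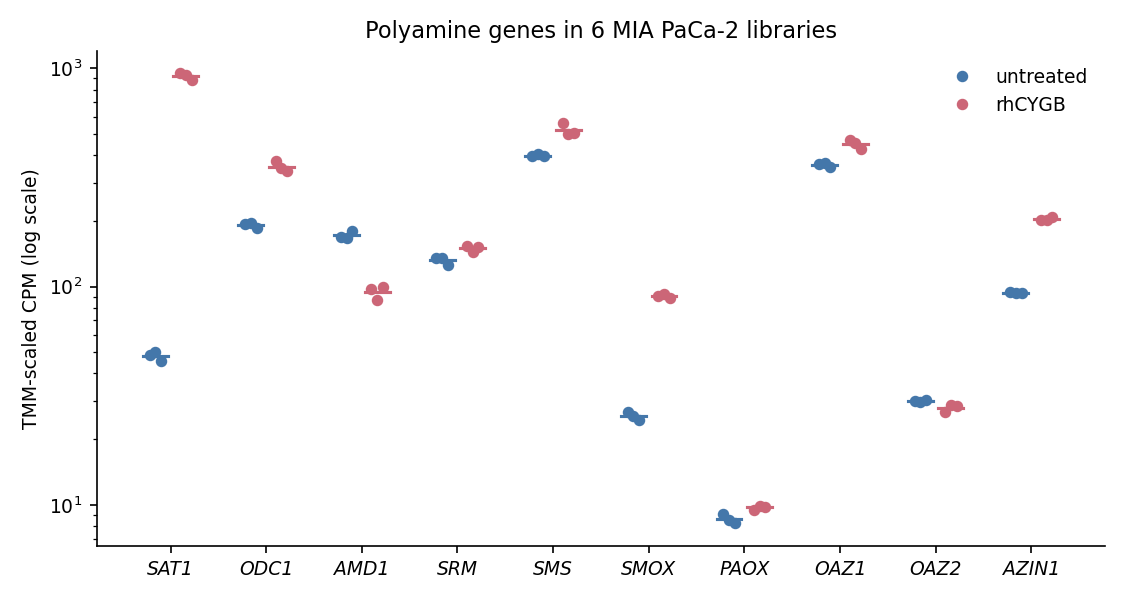
TMM-scaled CPM (log scale) of the 10 polyamine genes, with a point per library (blue untreated, red rhCYGB, 3 each) and a bar at the group mean. SAT1 moved from 48.0 to 926 CPM, while AMD1 moved from 172 to 94.8 CPM.

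In all 10 genes the 3 rhCYGB libraries lay wholly on 1 side of the 3 untreated libraries, 8 higher and 2 (AMD1 and OAZ2) lower. Over all tested genes 39.8% lay wholly higher and 39.7% wholly lower. A difference of 1 or more in mean log2 CPM, with groups apart, was reached upwards by SAT1, SMOX and AZIN1 and downwards by 0 members, beside 12.1% and 14.4% of all tested genes. The median difference was 0.35 over the members and -0.007 over all tested genes. Nothing is read from these counts, since the contrast itself chose the members. The small differences depend on scaling. When library sizes were total counts without TMM factors, the median of all genes moved to -0.168, the groups of SRM (log2 0.02) and PAOX (log2 0.01) overlapped, AZIN1 was at log2 0.95, and AMD1 was at log2 -1.03. In the deposited FPKM the groups of SRM overlapped too.

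**Figure D2:**
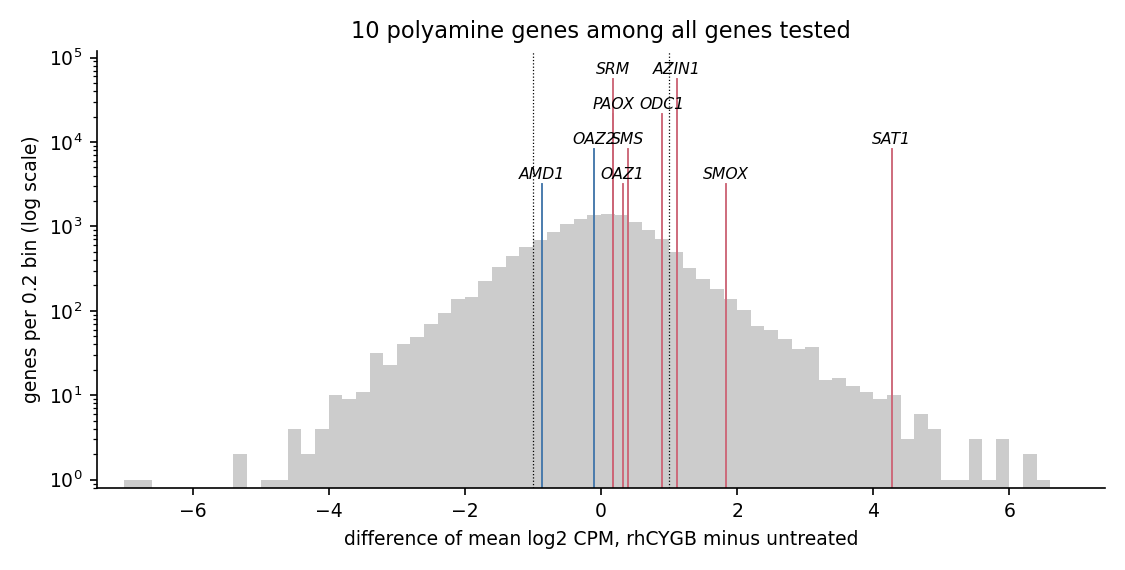
Histogram of the difference in mean log2 CPM, rhCYGB minus untreated, over 14728 tested genes (count per bin, log scale), with a line at each polyamine gene (red higher, blue lower) and dotted lines at a 2-fold change. SAT1 lies in the right tail at 4.27, and 7 of the 10 members lie between the dotted lines.

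The loci of the genes do not overlap, but SAT1 and SMS are on the same chromosome, X. SRM is on 1, ODC1 on 2, AMD1 on 6, AZIN1 on 8, PAOX on 10, OAZ2 on 15, OAZ1 on 19 and SMOX on 20. Levels of different genes were compared only per length, as the deposited FPKM. In untreated cells the order was OAZ1 (285.6 ± 3.51), SMS (218.5 ± 2.87), SRM (97.6 ± 3.38), ODC1 (72.0 ± 1.71), AMD1 (47.0 ± 2.29), SAT1 (39.6 ± 1.78), AZIN1 (20.6 ± 0.286), OAZ2 (14.4 ± 0.239), SMOX (11.2 ± 0.41) and PAOX (4.46 ± 0.164 FPKM, SD, n = 3). After rhCYGB it was SAT1 (689.5 ± 19.4), OAZ1 (318 ± 14.3), SMS (256 ± 19.2), ODC1 (119 ± 6.53), SRM (98.9 ± 5.08), AZIN1 (39.8 ± 1.99), SMOX (35.8 ± 0.404), AMD1 (23.3 ± 2.19), OAZ2 (12.0 ± 0.452) and PAOX (4.86 ± 0.0406 FPKM, SD, n = 3). No neighbours in either order overlapped in their libraries. SAT1 thus passed from 6th to 1st, and AMD1 from 5th to 8th. Among all genes of a library, SAT1 ranked between 1525 and 1673 by FPKM in untreated and between 104 and 106 in rhCYGB libraries.

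Both SAT1 isoforms were higher after rhCYGB, the coding isoform by more than the isoform with the extra exon. Isoform levels come from the deposited transcript counts, in which the assignment of reads shared by isoforms is an estimate. The coding isoform NM_002970 was at 23.3 ± 1.97 CPM in untreated and 566 ± 27.1 CPM in rhCYGB libraries (SD, n = 3), 24.3-fold higher. The isoform with the premature stop, NR_027783, was at 24.7 ± 1.7 and 361 ± 12.4 CPM (SD, n = 3), 14.6-fold higher. Its share of SAT1 reads was 48.2%, 53.0% and 53.3% in untreated libraries and 39.4%, 37.5% and 39.9% after rhCYGB. The groups did not overlap, with means of 51.5 ± 2.88% and 39.0 ± 1.26% (SD, n = 3) and a difference of -12.5 percentage points. Divided by isoform length, a calculation added after seeing the data, the mean shares were 49.1% and 36.7%.

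**Figure D3:**
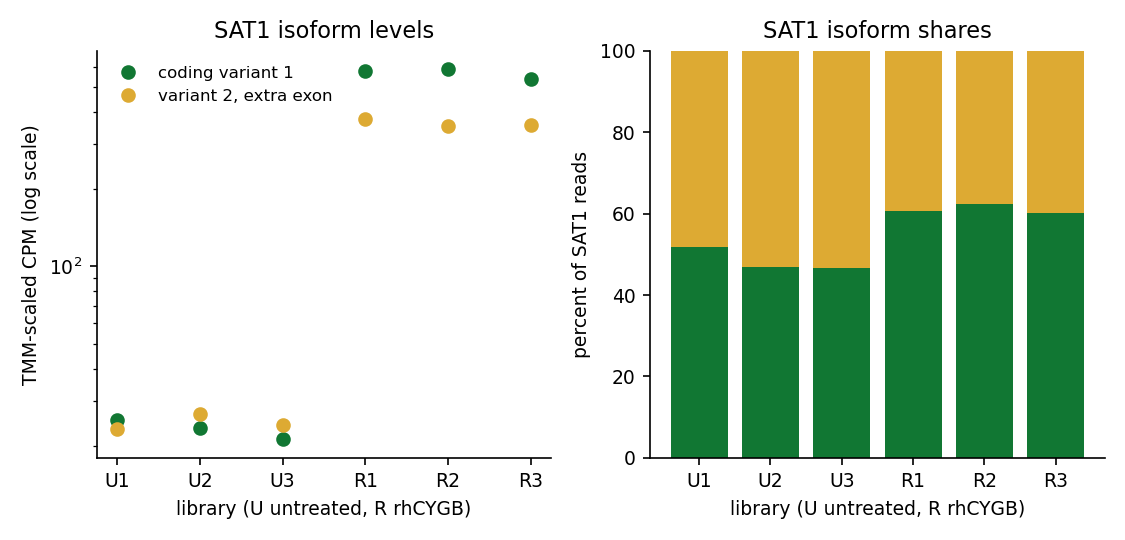
Left, TMM-scaled CPM (log scale) of the coding isoform and the isoform with the extra exon in each library; right, the share of each in the SAT1 reads of the library (U untreated, R rhCYGB). The share of the isoform with the extra exon was 48.2% to 53.3% in untreated and 37.5% to 39.9% in rhCYGB libraries.

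PAOX barely changed in total, but its reads were spread differently over its isoforms. Variant 1 (NM_152911) held 86.6%, 80.1% and 80.1% of PAOX reads in untreated libraries and 33.1%, 31.8% and 50.4% after rhCYGB, with means of 82.3 ± 3.79% and 38.5 ± 10.4% (SD, n = 3). Variant 5 (NM_207128) had mean shares of 7.78 ± 6.28% and 29.2 ± 10.5%, variant 6 (NR_109763, annotated as a transcript with no protein) of 6.98 ± 3.04% and 19.5 ± 4.41%, and variant 4 (NM_207127) of 2.29 ± 1.65% and 9.20 ± 3.82% (SD, n = 3). The groups did not overlap for any of these 4 isoforms, but the margins were narrow for variants 4 and 5. Variant 4 held 4.19% in untreated library 2 and 4.99% in rhCYGB library 3 (16 and 18 reads). Variant 5 held 14.9% in untreated library 3 and 17.2% in rhCYGB library 3 (50 and 62 reads). For variants 1, 4 and 5, but not 6, rhCYGB library 3 lay nearest to the untreated libraries. All 4 isoforms rest on 4 to 306 reads per isoform and library.

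Shares of the other members moved less or not beyond the spread of their libraries. Of 21 isoforms with at least 5% of their gene's reads in either group, 8 had groups that did not overlap: both of SAT1, 4 of PAOX, AMD1 variant 1 (NM_001634, 93.1% to 86.4%) and SMS variant 1 (NM_004595, 98.5% to 97.5%). Over 22586 isoforms of all tested genes chosen in the same way, 27.5% had groups that did not overlap. Without rhCYGB library 2, which leaves fewer values to overlap, 13 member isoforms were apart. The share over all isoforms was not computed for that setting. SMOX variant 1 (NM_175839) had a mean share of 68.5 ± 8.16% in untreated and 60.4 ± 5.90% in rhCYGB libraries (SD, n = 3), and its groups overlapped. In AZIN1 the libraries numbered 3 stood apart from the other libraries in both groups. Its variant 2 (NM_148174) held 54.7%, 55.8% and 82.1% of AZIN1 reads in untreated and 49.4%, 54.4% and 87.9% in rhCYGB libraries, and its variant 1 (NM_015878) 20.6%, 18.8% and 3.16% against 12.3%, 9.27% and 1.12%. At gene level the libraries numbered 3 were at 94.0 and 209 CPM, near the other libraries of their groups.

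**Figure D4:**
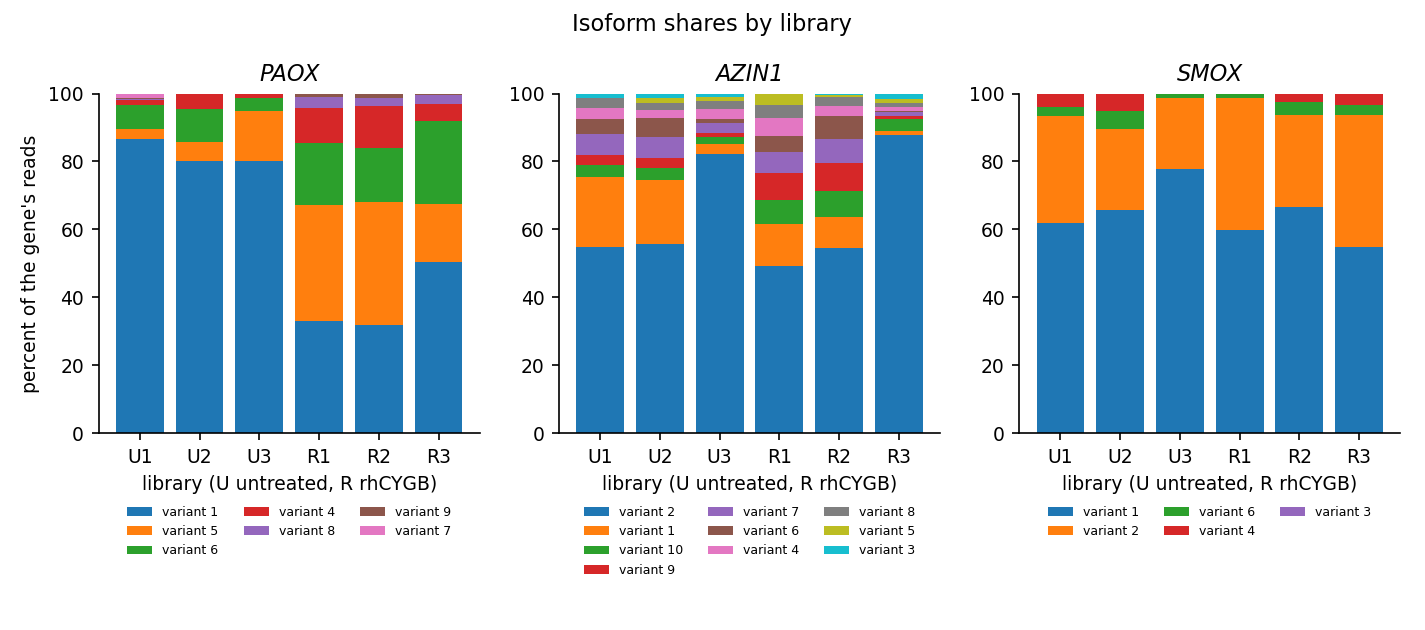
Share of each isoform in the reads of PAOX, AZIN1 and SMOX (percent, stacked to 100) in each library (U untreated, R rhCYGB). PAOX variant 1 was at 80.1% or more in every untreated and at 50.4% or less in every rhCYGB library, whereas AZIN1 differed mainly between the libraries numbered 3 and the others.

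The genes around this pathway that the choice of members did not name were tested with edgeR on all 6 libraries. Their list was also chosen with earlier results of these data known, so the p-values are no independent support. Of 30 such genes, 24 passed the filter on low counts, 10 rose, 13 fell and 1 (OAZ3) did not pass, at an adjusted p under 0.05, beside 39% higher and 38.6% lower over all tested genes. With a 2-fold change also required, 7 rose and 3 fell, beside 12.4% and 14.7%. The counts by role below have the same background, and none of them was tested as a group. The median log2 fold change was -0.26 over the 24 genes and -0.005 over all tested genes. Not tested for low counts were SATL1, AOC1, SLC22A3, ARG1, AGMAT and MTAP.

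SLC3A2, the heavy chain of amino acid transporters that has also been linked to polyamine export with SAT1, rose most in this list. It was at 93.7, 91.8 and 77.7 CPM in untreated and at 995, 938 and 956 CPM in rhCYGB libraries, a log2 fold change of 3.46 (SE 0.06, edgeR adjusted p = 7.04e-16). SAT2, a relative of SAT1 that acts mainly on other substrates, rose from 27.3, 28.7 and 25.8 CPM to 107, 108 and 105 CPM (log2 fold change 1.97, SE 0.049, edgeR adjusted p = 2.35e-14). Its locus shares positions with SHBG. Treated libraries lay wholly above untreated ones for both genes.

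In the supply of ornithine and arginine, 2 of 5 tested genes rose and 3 fell, where 39% and 38.6% of all tested genes did. ARG2, the mitochondrial arginase that makes ornithine, rose by a log2 fold change of 2.42 (SE 0.075, edgeR adjusted p = 2.7e-13), and the arginine and ornithine transporter SLC7A1 by 1.41 (SE 0.047, edgeR adjusted p = 5.38e-13). ARG2 shares positions with VTI1B. OAT, ALDH18A1 and SLC25A15 fell by between 0.35 and 0.40 on the log2 scale.

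In hypusination, where spermidine modifies the translation factor eIF5A, 3 of 4 genes rose and 1 fell (39% and 38.6% over all tested genes). EIF5A itself fell from 744, 755 and 731 CPM to 352, 337 and 348 CPM (log2 fold change -1.11, SE 0.034, edgeR adjusted p = 2.6e-13). EIF5A2, a close relative of it, rose from 14.9, 15.9 and 15.6 CPM to 34.3, 34.2 and 36.1 CPM (log2 fold change 1.17, SE 0.059, edgeR adjusted p = 5.98e-11), but was at 0.79 with limma on log2(FPKM + 1) and 0.98 on log2(FPKM + 0.1). Reads of EIF5A can also match its near-identical copy EIF5AL1. The modifying enzymes DHPS and DOHH rose by 0.74 and 0.72 on the log2 scale.

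Of the transport and uptake genes, 2 of 5 rose (SLC3A2 and ATP13A3) and 3 fell, again beside 39% and 38.6% over all tested genes. The largest fall there was that of GPC1, a heparan sulfate proteoglycan that has been linked to polyamine uptake, with a log2 fold change of -1.005 (SE 0.046, edgeR adjusted p = 2.15e-11). Without untreated library 1 or without rhCYGB library 3 it was at -0.98, short of a 2-fold change. In the antizyme family AZIN2 fell from 8.64, 7.21 and 7.23 CPM to 2.83, 2.65 and 4.61 CPM (log2 fold change -1.19, SE 0.181, edgeR adjusted p = 2.27e-05), opposite in direction to AZIN1. With limma on log2(FPKM + 1) AZIN2 was at -0.67. OAZ3 had 16 to 28 counts per library and an adjusted p of 0.905 in edgeR.

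Of 7 tested genes that make S-adenosylmethionine or salvage methylthioadenosine, the by-product of SRM and SMS, 5 fell and 2 rose, beside 38.6% lower and 39% higher over all tested genes. MAT2A fell by 0.70 and MAT2B by 0.21 on the log2 scale, while MAT1A rose but on 4 counts in each untreated and 18 to 22 in each rhCYGB library. In salvage MRI1, APIP and ADI1 fell by 0.85, 0.80 and 0.54 on the log2 scale, and ENOPH1 rose by 1.11 (SE 0.055, edgeR adjusted p = 5.75e-11). With total counts ENOPH1 was at 0.94, short of a 2-fold change. MAT2A shares positions with GGCX and APIP with PDHX. MTAP, the entry enzyme of salvage, had 0 counts in every library, which allows up to 0.0861 CPM of the total counts in the shallowest library. That limit covers counting error only.

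**Figure D5:**
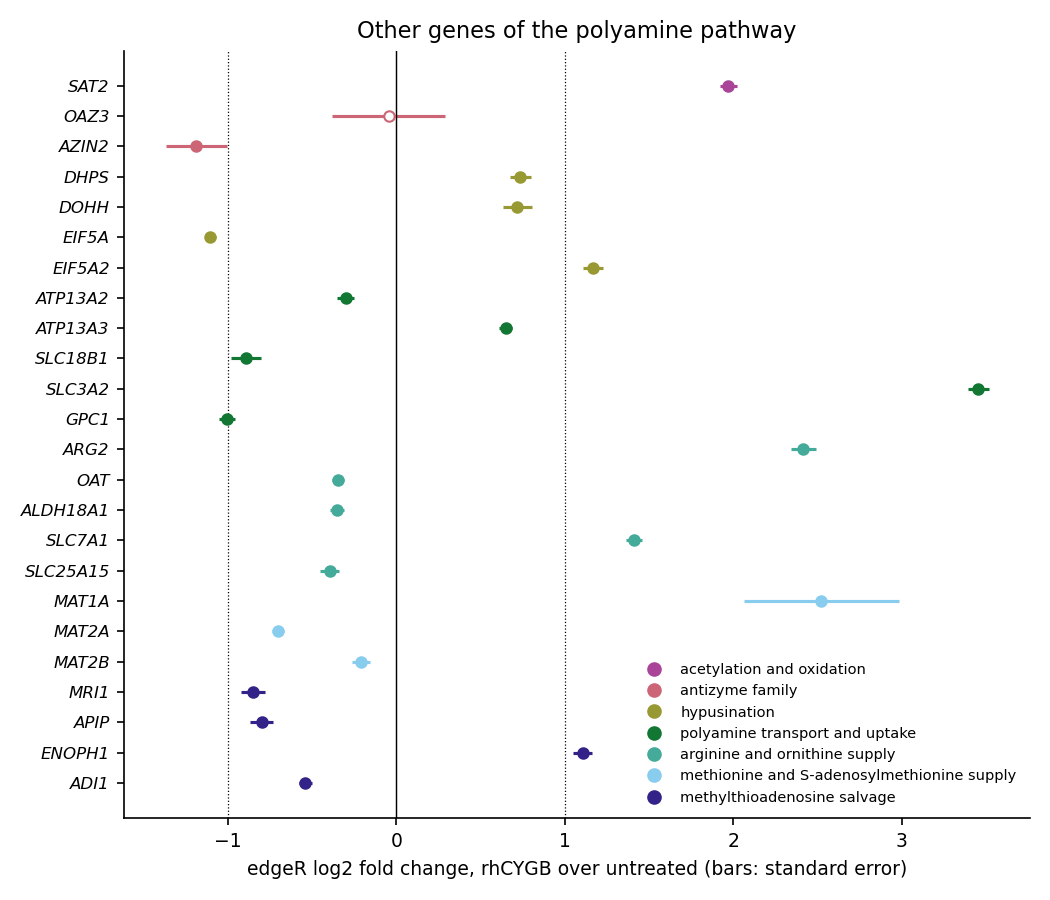
edgeR log2 fold change, rhCYGB over untreated, of 24 other genes of the polyamine pathway, coloured by role, with bars for the standard error and dotted lines at a 2-fold change; the open point (OAZ3) did not pass the adjusted p. SLC3A2 stands highest at 3.46 and AZIN2 lowest at -1.19.

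The genes whose profile over the 6 libraries was nearest to SAT1, among 9346 genes with a mean of at least 10 CPM, were SIK1, CXCL8, RAB39B, DDIT3 and CXCL3. Their distances in centred log2 CPM were 0.27, 0.36, 0.42, 0.42 and 0.54. SIK1, a kinase, rose from a mean of 32.3 to 555 CPM, and DDIT3, a transcription factor of the stress response, from 14.7 to 248 CPM. Reads of SIK1 can also match its near-identical copy SIK1B. CXCL8 and CXCL3 are chemokines, and RAB39B is a small GTPase. Nearest to AMD1 were ECT2, PCMTD2, CAAP1, PAXIP1-AS1 and DEGS1, at distances between 0.079 and 0.092. DEGS1 is a ceramide desaturase, and PAXIP1-AS1 is an antisense gene whose reads may not be told from its partner's. With 2 groups these distances mostly reflect the size of the difference between them.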

How the data were processed

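RNA-seq values of 6 MIA PaCa-2 libraries (3 untreated, 3 rhCYGB) were used, with groups taken from the sample labels. The authors sequenced poly(A) RNA from a stranded kit. The submitters' processing notes name FastQC 0.11.7, HISAT2 2.1.0, StringTie 2.1.3b and the mouse build mm10. The samples are human and the tables name no build, so no deposited position is printed and the printed sequences come from GRCh38. The authors deposited read counts per gene and per transcript, not normalized, and FPKM values scaled to transcript length and depth. Transcript counts summed to the gene count for all 10 members. Deposited TPM columns (12) and transcript FPKM columns (6) were not used.

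Genes were filtered with filterByExpr, scaled with TMM factors and tested with the quasi-likelihood test of edgeR 4.0.16 in R 4.3.3, two-sided, with Benjamini-Hochberg adjustment over 14728 genes. A call needed an adjusted p under 0.05 and a 2-fold change. Members were described by mean log2 CPM with a prior count of 2. DESeq2 1.42.0 and limma 3.58.1 served as alternatives, as did other scalings, filters, the replicate block and leaving out each library. The fits were tested on simulated data. The members and gene lists were chosen with earlier results of these data known. All members, the pathway genes called and the 5 nearest profiles to SAT1 and to AMD1 are named. Each pair of same-group libraries showed more spread than counting error (chi-square over degrees of freedom 4.67 to 6.61), so none was a copy of another.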

Additional observations from a re-analysis of the deposited data

How the results depend on the processing

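Under 15 alternatives each, all 150 member values kept their direction, and 29 moved by more than 1 SD. SAT1 was at 4.10 with total counts, 4.09 with limma on log2(FPKM + 1), 4.12 with log2(FPKM + 0.1), and between 4.23 and 4.30 when 1 library was left out. Called genes numbered 3998 (1833 higher, 2165 lower), but 1977 (805 higher, 1172 lower) with limma on log2(FPKM + 1), whose pseudocount lowers the change of weakly expressed genes, and 3982 to 4101 (1821 to 1892 higher, 2135 to 2267 lower) when 1 library was left out. The split was 1395 higher and 2719 lower with total counts and 1282 higher and 2327 lower with log2(FPKM + 0.1), but 1801 higher and 2216 lower with DESeq2 size factors. Called pathway genes numbered 10, but 11 with total counts, 6 with limma on log2(FPKM + 1) and 9 with log2(FPKM + 0.1). They numbered 9 with at least 10 counts in every library and 9 to 10 when 1 library was left out. Members past a 2-fold difference were SAT1, SMOX and AZIN1, but SAT1 and SMOX with limma on log2(FPKM + 1), and SAT1, AMD1 and SMOX with total counts or log2(FPKM + 0.1). GPC1 fell below a 2-fold change without untreated library 1 or rhCYGB library 3 (-0.98 each), ENOPH1 with total counts (0.94) and both FPKM scales, AZIN2 with log2(FPKM + 1), and EIF5A2 and MAT1A with both FPKM scales. Isoforms with groups apart numbered 8 of 21 at a minimum share of 5% and 13 of 33 at 1%. Without rhCYGB library 2 they numbered 13 (8 to 13 when 1 library was left out), with fewer values to overlap. The share over all isoforms was computed only at 5% with all 6 libraries, so nothing is read from the other counts. The SAT1 isoform share difference lay between -14.2 and -11.6 percentage points and that of PAOX variant 1 between -49.8 and -40.5.

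At gene level, libraries with the same replicate number did not deviate together (correlations -0.048, 0.007 and 0.006), so the numbers were not taken as pairs, although AZIN1 isoform shares stood apart in the libraries numbered 3 of both groups. With the replicate block 3978 genes were called (1817 higher, 2161 lower), 10 of the pathway, and SAT1 was at 4.27. Depth limits PAOX isoforms, MAT1A and OAZ3, which rest on few reads. Isoform counts are estimates.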
